A study of Saccharomyces cerevisiae with 9 samples.

Results

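Ergosterol is the main sterol of the membranes of the budding yeast Saccharomyces cerevisiae, and 31 genes for making it, storing it and controlling its synthesis were followed here. They were chosen by name from the known pathway, with earlier results of these data known. The set falls into 9 genes of the mevalonate steps, 14 genes of the sterol steps, 2 electron donor genes, 2 regulator genes and 4 genes of ester storage. Each gene matched 1 probe of the array by its systematic name, so the set makes up 31 of 6947 probes. All 31 had a value on all 9 arrays and passed the filter on missing values, which 6866 probes passed in all.

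The mevalonate steps build farnesyl diphosphate, an isoprenoid, from acetyl-CoA, and the HMG-CoA reductases carry out their main controlled reaction. Squalene synthase then opens the sterol steps, several of which use molecular oxygen, heme or iron, so that sterol genes respond to oxygen and to the sterol content of the cell. Surplus sterol is esterified to fatty acids and kept in lipid droplets, from which hydrolases can release it again.

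The study set strains evolved for 6700 generations against the strains from which they were derived. On 6 two-colour arrays RNA of m8, an evolved mutator line (its ancestor already had a raised mutation rate), was labelled with Cy5 and RNA of the mutator ancestor with Cy3. On 3 arrays, the control, RNA of an evolved non-mutator strain was set in the same way against RNA of its non-mutator ancestor. All strains grew in 3 ml of the rich medium YPD to an OD600 of about 0.3, and the labels give neither the alleles behind the mutator state nor any further genotype. Each evolved group is thus 1 line, and nothing in the labels says that replicates came from separate cultures, so a p-value here reflects only how far these samples spread, possibly for technical reasons.

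The 6 mutator arrays came in 2 rounds, a first and one titled as a repeat. The repeat round carried the same evolved RNA numbers, 1, 2 and 3. The labels do not say whether it used the same RNA, new RNA or new cultures. A technical difference between rounds therefore cannot be told apart from a difference between cultures. Array 2 of the repeat round was set against ancestor RNA number 1, as was its array 1. For the test the first and the repeat array of an RNA number counted as 1 replicate, at their mean, which left 3 replicates in each group. Each value below is a log2 ratio, evolved strain to ancestor, from which its array's median was subtracted. This direction is the likely one, because Cy5 marked the evolved strain on every array, but it is not stated with the values. A gene was called where limma's adjusted p over all probes tested was under 0.05. In RNA of a whole culture, a change in every cell and a change in the share of cells that express a gene cannot be told apart.

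The array sets differed widely in spread. Over all probes the log2 ratios had an SD of 0.848 to 1.0 in the mutator set, while the non-mutator set spanned 0.275 to 0.304. Between arrays, Pearson's r across probes lay at 0.889 to 0.970 among first-round mutator arrays, 0.833 to 0.863 among the repeats, 0.777 to 0.865 from round to round and -0.0456 to 0.058 between mutator and non-mutator arrays.

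**Figure D1:**
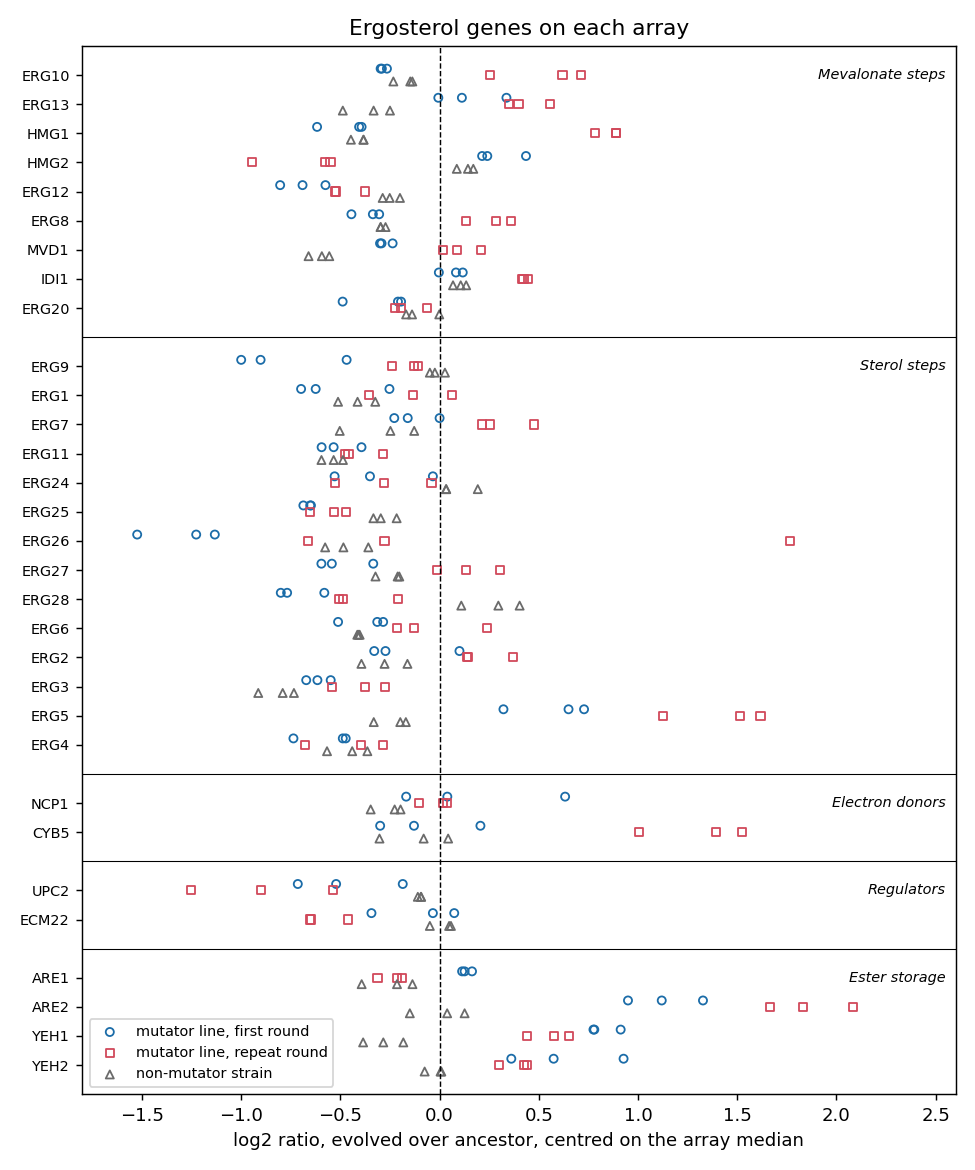
Log2 ratio of the evolved strain over its ancestor (x axis, centred on each array's median) for each of the 31 genes (y axis), 1 point per array: circles are first-round mutator arrays, squares repeat-round mutator arrays and triangles non-mutator arrays. ARE2, YEH1, YEH2 and ERG5 lie above 0 on all 6 mutator arrays, HMG1 and HMG2 change sides between the rounds, and 22 of the 31 genes lie below 0 on all 3 non-mutator arrays.

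The first question was how the pathway differed between the mutator line and its ancestor. Of the 4 genes of ester storage 3 rose, most of all the acyltransferase gene ARE2 at 2.82-fold, while many sterol genes and both regulator genes fell by less than 2-fold. The mevalonate genes had no common direction, and several changed sides from the first round to the repeat. Of the 31 genes 8 rose and 15 fell, and without centring 9 rose and 11 fell. Over all probes 37.3% were called higher and 37.8% lower, 75.1% in all, so the share of the 31 genes with a call was near the background and is no result about them. The genes below 0 on all 6 mutator arrays numbered 10 and those above 0 on all 6 numbered 4, where 32.4% and 30.9% of probes with a value on all 9 arrays were.

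Because the rounds are averaged within each replicate, these p-values leave out the difference between rounds. With the round as a random block 18 of the 23 calls passed, and those of HMG1, HMG2, ERG27, ERG6 and CYB5 did not. This fit counted the 6 mutator arrays as separate replicates and used a single correlation within rounds, 0.116, for all probes. ERG13, IDI1 and ECM22 kept their calls in it, though none of them passed in the first round alone. A call kept there thus need not hold in each round. Each round was therefore also tested alone, mutator line against its ancestor, in a fit whose spread was shared with the same non-mutator arrays. In the first round 5 of the 31 genes rose and 18 fell, against 35.4% and 36.3% of all probes (71.7% in all). In the repeat round 12 rose and 12 fell, against 34.2% and 34.8% (68.9% in all). The genes that rose in both rounds numbered 4 (ERG5, ARE2, YEH1 and YEH2), or 12.9% of the set, where 27.0% of all probes did. Those that fell in both numbered 9 (ERG12, ERG9, ERG11, ERG24, ERG25, ERG28, ERG3, ERG4 and UPC2), or 29.0% of the set, where 28.5% of all probes did. Another 4 (ERG10, HMG1, HMG2 and ERG8) were called in opposite directions, also 12.9% of the set, where 1.64% of all probes were. Of these HMG2 alone was higher and then lower, like 0.640% of all probes, and the other 3 were lower and then higher, like 1.01%.

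**Figure D2:**
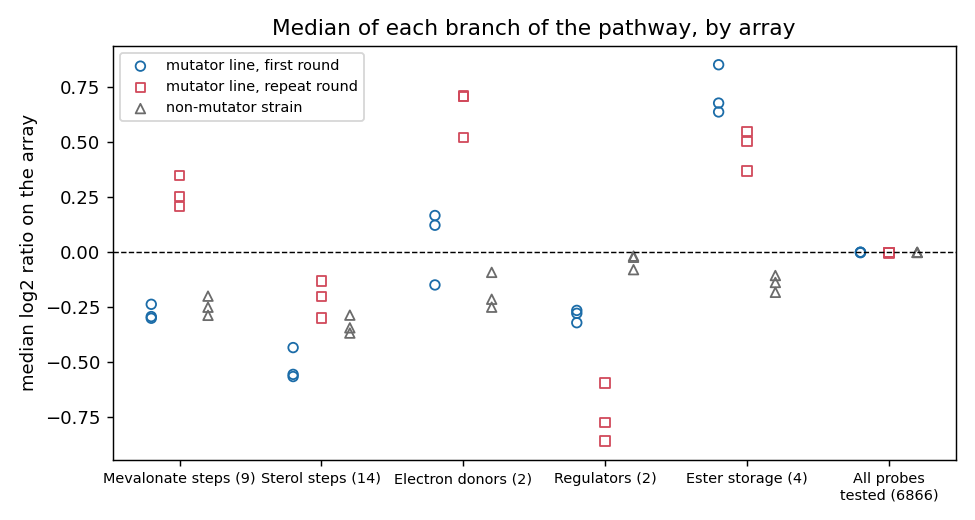
Median log2 ratio (y axis) of the genes of each branch on each array, with the number of genes in brackets and all tested probes at the right. Circles are first-round mutator arrays, squares repeat-round mutator arrays and triangles non-mutator arrays. The mevalonate median lies between -0.30 and -0.24 on first-round arrays and between 0.21 and 0.35 on repeat arrays, while the ester storage median lies above 0 on all 6 mutator arrays.

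In the sterol storage branch 3 of 4 genes rose (75.0%, against 37.3% of all probes) and 0 fell in the mutator line. The branch had a share called in either direction like the 75.1% of all probes. Its median log2 ratio was 0.60 ± 0.08 (SD of replicate medians, n = 3), where the median of all tested probes was 0.02. ARE2 (YNR019W) encodes the main sterol acyltransferase of aerobic cells, which joins sterols to fatty acids. It read 1.12, 0.95 and 1.33 on the first-round arrays and 2.08, 1.66 and 1.83 on the repeat arrays, against -0.15, 0.13 and 0.04 on the non-mutator arrays. Every mutator array was thus well above every non-mutator array, and the repeat arrays were above the first. The mutator mean was 1.5 ± 0.16 (SD, n = 3; limma, adjusted p = 1.01e-05).

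The steryl ester hydrolase genes, whose products free sterols from the stored esters, rose as well. YEH1 (YLL012W) read 0.91, 0.78 and 0.78 in the first round and 0.65, 0.44 and 0.58 in the repeat, against -0.39, -0.28 and -0.18 on the non-mutator arrays. Its mutator mean was 0.69 ± 0.09 (SD, n = 3), 1.61-fold, with an adjusted p of 6.99e-05 in limma. YEH2 (YLR020C), which encodes the hydrolase of the plasma membrane, read 0.36, 0.57 and 0.93 and then 0.44, 0.30 and 0.43, against 0.01, 0.01 and -0.08, with a mean of 0.51 ± 0.15 (SD, n = 3; limma, adjusted p = 0.000474). Neither hydrolase gene had a mutator array within the non-mutator range.

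ARE1 (YCR048W), the paralogue of ARE2 and the acyltransferase that is favoured when oxygen is low, did not move with it. It read 0.16, 0.11 and 0.13 in the first round and -0.19, -0.31 and -0.21 in the repeat, with a mean of -0.05 ± 0.04 (SD, n = 3; limma, adjusted p = 0.447). The rounds did not overlap, and only the repeat round alone gave a call (lower, adjusted p = 0.0182 in limma). Among the 3 genes of this branch that rose, the difference from the non-mutator change also passed, at 1.49 for ARE2, 0.97 for YEH1 and 0.53 for YEH2 (limma, adjusted p = 7.41e-05, 0.00011 and 0.00258).

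Of 15 genes of neutral lipid synthesis and breakdown, 0 rose and 11 fell in the mutator line, with a median of -0.34, and 4 did not pass. The 73.3% called, all of them lower, stood against 37.8% of all probes called lower and 75.1% called in either direction. TGL5 and NEM1 lost their calls with the round as a random block (limma, adjusted p = 0.0753 and 0.244). DGA1, the acyltransferase that makes triacylglycerol, fell to -0.62 ± 0.05, and TGL3, a triacylglycerol lipase gene, to -0.52 ± 0.11 (SD, n = 3; limma, adjusted p = 4.45e-05 and 0.00024). TGL1, which encodes a further steryl ester hydrolase, fell to -0.72 ± 0.16 and the seipin gene SEI1 to -0.33 ± 0.04 (SD, n = 3; limma, adjusted p = 0.000218 and 0.000415). Thus YEH1 and YEH2 rose while TGL1, whose product acts on the same class of substrate, fell.

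The sterol steps mostly fell in the mutator line. Of their 14 genes 1 rose, 10 fell (71.4%, against 37.8% of all probes) and 3 did not pass. The share called in either direction, 78.6%, was near the 75.1% of all probes. The median was -0.40, although with the rounds apart it was -0.52 in the first and -0.15 in the repeat. In the first round alone 1 sterol gene rose and 11 fell, and in the repeat alone 3 rose and 7 fell. The late gene ERG3 (YLR056W), which encodes the sterol desaturase that uses iron and oxygen, read -0.62, -0.67 and -0.55 in the first round and -0.27, -0.38 and -0.54 in the repeat. Its mean was -0.50 ± 0.05 (SD, n = 3; limma, adjusted p = 0.000171). ERG11 (YHR007C), the lanosterol demethylase and the target of azole drugs, read -0.59, -0.53 and -0.39 and then -0.28, -0.46 and -0.48, a mean of -0.46 ± 0.03 (SD, n = 3; limma, adjusted p = 0.000121). Both genes were below 0 on every mutator array.

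Removal of the methyl groups of lanosterol needs ERG25, ERG26 and ERG27, which the scaffold protein of ERG28 holds together. ERG25 (YGR060W), the methyl oxidase gene, kept within -0.69 to -0.47 on all 6 arrays, with a mean of -0.61 ± 0.04 (SD, n = 3; limma, adjusted p = 3.95e-05). ERG28 (YER044C) read -0.58, -0.77 and -0.80 in the first round and -0.49, -0.21 and -0.51 in the repeat, with a mean of -0.56 ± 0.09 (SD, n = 3; limma, adjusted p = 0.000393). ERG27 (YLR100W), the ketoreductase gene, was at -0.49 ± 0.14 over the first round and 0.14 ± 0.16 over the repeat (SD, n = 3 arrays each), and its call as lower rested on the first (mean -0.17; limma, adjusted p = 0.0232).

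ERG26 (YGL001C), the sterol decarboxylase and dehydrogenase gene, was the least settled of the 31. It read -1.52, -1.13 and -1.23 in the first round and -0.28, 1.77 and -0.66 in the repeat. The value of 1.77 came from repeat array 2, set against ancestor RNA number 1, where the deposited ratio was 3.7, with no more than 1 decimal. The mean of -0.51 ± 0.72 (SD, n = 3) did not pass (limma, adjusted p = 0.0962), although the first round alone did (adjusted p = 2.67e-05 in limma).

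Of the other sterol genes, the squalene synthase gene ERG9 (YHR190W) was at -0.79 ± 0.28 in the first round and at -0.16 ± 0.07 in the repeat (SD, n = 3 arrays each), and both calls were lower. ERG4 (YGL012W), which encodes the last enzyme of the pathway, fell to -0.51 ± 0.07 (SD, n = 3; limma, adjusted p = 0.000231). ERG24, the sterol reductase gene after ERG11, passed narrowly at -0.29 ± 0.25 (SD, n = 3; limma, adjusted p = 0.0282), and its values differed more between RNA numbers than between rounds. The squalene epoxidase gene ERG1 fell to -0.33 ± 0.07 and the methyltransferase gene ERG6 to -0.20 ± 0.06 (SD, n = 3; limma, adjusted p = 0.00153 and 0.00494), but neither passed in the repeat round alone. The lanosterol synthase gene ERG7 (0.09) and the isomerase gene ERG2 (0.03) did not pass. Their means were -0.13 and -0.17 in the first round, without a call. In the repeat round alone both were called higher (limma, adjusted p = 0.0211 and 0.0372).

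ERG5 (YMR015C), a heme-containing desaturase gene of the late steps, was the single sterol gene that rose with the rounds averaged. It read 0.65, 0.32 and 0.73 in the first round and 1.51, 1.62 and 1.13 in the repeat, against -0.20, -0.33 and -0.17 on the non-mutator arrays. Its mutator mean was 0.99 ± 0.08 (SD, n = 3), 1.99-fold, with an adjusted p of 1.05e-05 in limma. No mutator array overlapped the non-mutator arrays, and the repeat values were above the first-round values. ERG11 and ERG5 both encode heme enzymes that draw electrons from the reductase of NCP1, yet ERG11 fell while ERG5 rose.

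The electron donors did not move together. CYB5 (YNL111C), which encodes a small heme protein that passes electrons to sterol and fatty acid desaturases, read -0.30, -0.13 and 0.21 in the first round and 1.39, 1.53 and 1.0 in the repeat. Its mean of 0.62 ± 0.08 (SD, n = 3; limma, adjusted p = 0.000356) thus comes from the repeat round, and with the round as a random block it did not pass (limma, adjusted p = 0.0502). NCP1 (YHR042W) read 0.63, -0.17 and 0.04 and then 0.02, -0.10 and 0.04, and its mean of 0.08 ± 0.23 (SD, n = 3) did not pass (limma, adjusted p = 0.464).

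Both regulator genes fell in the mutator line. UPC2 (YDR213W) and ECM22 (YLR228C) encode related zinc cluster factors that bind sterol regulatory elements and activate ERG genes. UPC2 read -0.19, -0.52 and -0.71 in the first round and -1.25, -0.90 and -0.54 in the repeat, against -0.09, -0.09 and -0.11 on the non-mutator arrays. Its mean was -0.69 ± 0.05 (SD, n = 3), and it was called lower in both rounds (limma, adjusted p = 1.61e-05 for the mean). ECM22 read -0.34, -0.03 and 0.07 and then -0.46, -0.65 and -0.65, with a mean of -0.34 ± 0.06 (SD, n = 3; limma, adjusted p = 0.000632), and its first round alone did not pass (adjusted p = 0.325 in limma).

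The genes with opposite calls in the 2 rounds were all of the mevalonate steps, although genes of other branches, such as ARE1 and ERG27, also had means that changed sides, without a call in each round. Of the 9 mevalonate genes 3 rose, 3 fell and 3 did not pass. In the first round alone 1 rose and 6 fell, and in the repeat alone 5 rose and 2 fell. HMG1 (YML075C) and HMG2 (YLR450W) encode the HMG-CoA reductases. As background, HMG1 is the isozyme favoured in air, since heme activates it, and HMG2 the isozyme favoured when oxygen is scarce.

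HMG1 read -0.41, -0.62 and -0.39 in the first round and 0.89, 0.89 and 0.78 in the repeat. HMG2 read 0.44, 0.24 and 0.21 in the first round and -0.95, -0.58 and -0.55 in the repeat. Each isozyme gene therefore changed sides, and in each round the isozyme genes stood on opposite sides of 0. The first-round calls were lower for HMG1 and higher for HMG2 (limma, adjusted p = 0.000592 and 0.00493), and the repeat calls were the reverse (limma, adjusted p = 2.96e-05 and 0.000677).

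Averaged over rounds, HMG1 stood at 0.19 ± 0.05 and HMG2 at -0.20 ± 0.05 (SD, n = 3). Both passed (limma, adjusted p = 0.00685 and 0.00618), but neither did with the round as a random block (limma, adjusted p = 0.469 and 0.343). Without the repeat array of number 2 the mean of HMG1 was -0.06. The repeat minus first-round difference, tested within RNA numbers, was 1.32 for HMG1 (SE 0.13; limma, adjusted p = 0.0439) and -0.99 for HMG2 (SE 0.17; limma, adjusted p = 0.0998). HMG1 was the single member of the 31 that passed this test, which 1.29% of all probes passed, 0.767% higher and 0.521% lower in the repeat. At an unadjusted p under 0.05 it was passed by 15 of the 31 (48.4%), where 18.4% of all probes did. With any 1 of the 3 RNA numbers left out, 0 of the 31 passed after adjustment. For number 2 the difference between rounds also includes a change of ancestor RNA.

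ERG10 (YPL028W), the thiolase gene of the first step, turned in the same way as HMG1. It read -0.27, -0.29 and -0.30 in the first round and 0.62, 0.71 and 0.25 in the repeat. ERG8 (YMR220W), a phosphomevalonate kinase gene, read -0.44, -0.34 and -0.30 and then 0.14, 0.36 and 0.28. Both had calls in each round, lower and then higher, and neither mean passed (0.12 and -0.05; limma, adjusted p = 0.1 and 0.364).

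The other mevalonate genes had no opposite calls. ERG12 (YMR208W), the mevalonate kinase gene, fell to -0.58 ± 0.07 (SD, n = 3; limma, adjusted p = 5.53e-05) and was below 0 on all 6 arrays. ERG20 (YJL167W), the farnesyl diphosphate synthase gene, fell to -0.23 ± 0.04, while ERG13 (YML126C), the HMG-CoA synthase gene, rose to 0.29 ± 0.07 and IDI1 (YPL117C), the isomerase gene, to 0.25 ± 0.04 (SD, n = 3; limma, adjusted p = 0.00568, 0.00437 and 0.00174). The rises of ERG13 and IDI1 rested on the repeat round, since their first-round means of 0.15 and 0.07 did not pass alone, and ERG20 did not pass in the repeat alone (limma, adjusted p = 0.151, 0.294 and 0.0539). MVD1 (YNR043W), the mevalonate diphosphate decarboxylase gene, read -0.30, -0.24 and -0.29 in the first round, where it was called lower, and then 0.21, 0.09 and 0.02, which was no call. It changed sides on every array, and its mean of -0.09 ± 0.05 (SD, n = 3) did not pass (limma, adjusted p = 0.119).

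Taking the 31 genes as they stood on the arrays, 18 (58.1%) had all 3 repeat arrays above all 3 first-round arrays, where 14.3% of probes with a value on all 9 arrays did. The reverse held for 4 (12.9%), namely HMG2, ECM22, ARE1 and YEH1, where 16.4% of such probes did. The median repeat minus first-round difference was 0.31 over the 31 genes and -0.02 over all tested probes. It was 0.36 for the mevalonate steps, 0.36 for the sterol steps and -0.25 for ester storage.

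**Figure D3:**
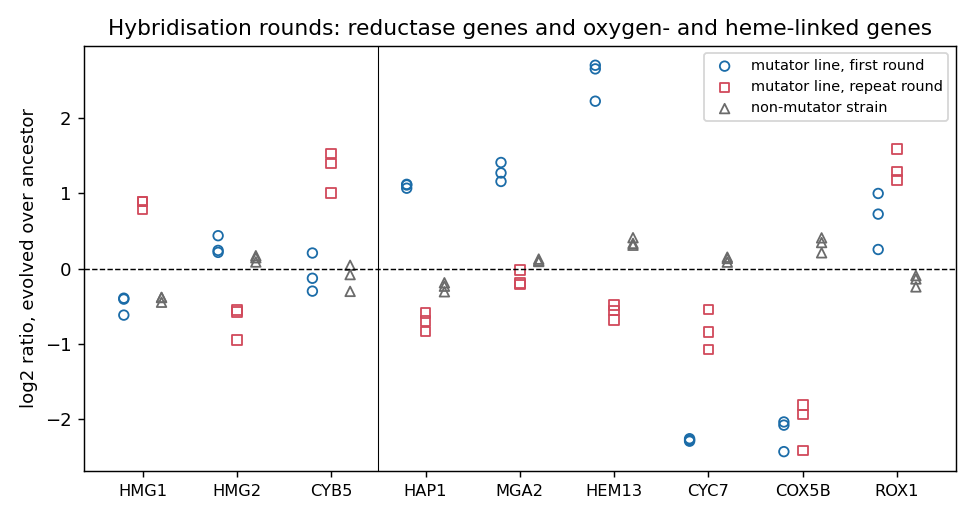
Log2 ratio of the evolved strain over its ancestor (y axis) for HMG1, HMG2 and CYB5 of the pathway, left of the line, and for 6 oxygen- and heme-linked genes outside it, 1 point per array. Circles are first-round mutator arrays, squares repeat-round mutator arrays and triangles non-mutator arrays. HMG1 and HMG2 swap sides between rounds, as do HAP1 and HEM13, whereas COX5B lies near -2 in both rounds.

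Of 23 listed genes tied to oxygen, heme and lipid regulation, 4 passed the test between rounds, which 1.29% of all probes passed. The others did not, and the lists were chosen with earlier results of these data known. HAP1, the heme-responsive activator, and HEM13, a heme synthesis gene that is derepressed when oxygen or heme is low, are given here, HAP1 having been chosen after its values were seen. HAP1 was at 1.10 ± 0.03 over the first round and -0.70 ± 0.12 over the repeat, and HEM13 at 2.52 ± 0.26 and -0.58 ± 0.10 (SD, n = 3 arrays each). CYC7, the gene of the minor cytochrome c isoform, was at -2.27 ± 0.02 and then -0.82 ± 0.27, and MGA2, a regulator of fatty acid desaturation, at 1.28 ± 0.13 and then -0.14 ± 0.10 (SD, n = 3 arrays each). All 4 passed the test between rounds (limma, adjusted p = 0.0439 each).

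Not every oxygen-linked gene turned. COX5B, the hypoxic cytochrome oxidase subunit gene, was at -2.18 ± 0.22 and -2.05 ± 0.32, and ROX1, the repressor of hypoxic genes, at 0.66 ± 0.38 and 1.35 ± 0.21 (SD, n = 3 arrays each). Of the 12 hypoxic and anaerobic genes listed, 11 were tested, 4 rose and 6 fell in the mutator line, where 75.1% of all probes were called. The rises of HEM13 and AAC3 were lost with the round as a random block (limma, adjusted p = 0.119 and 0.107). The list had a median of -0.10 over the first round and -0.58 over the repeat. TIR2, a cell wall mannoprotein gene, fell to -1.02 ± 0.25 (SD, n = 3; limma, adjusted p = 9.1e-05). DAN1, the gene not tested, had a value on 1 mutator array. The part of oxygen, heme or growth of the cultures in the turn of HMG1 and HMG2 was not tested.

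Of 12 regulator genes outside the set linked to oxygen, heme and lipids, 10 rose and 1 fell in the mutator line, with a median of 0.38, where 37.3% of all probes rose and 75.1% were called. HAP1, MGA2 and CYC8 lost their calls with the round as a random block (limma, adjusted p = 0.579, 0.0585 and 0.101). SUT1, an activator of sterol uptake genes, rose to 1.34 ± 0.16 and MOT3, a repressor of hypoxic and ergosterol genes, to 1.16 ± 0.14 (SD, n = 3; limma, adjusted p = 7.02e-06 and 1.06e-05). ROX1 (1.0) and MGA2 (0.57) completed the 4 with the smallest p.

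Genes of sterol transport, uptake and acetylation gave 4 that rose and 10 that fell of 22, with a median of -0.12, and the 63.6% called was below the 75.1% of all probes. KES1 and ARV1, among the 4 that rose, and LAM4 lost their calls with the round as a random block (limma, adjusted p = 0.0884, 0.332 and 0.0626). NCR1, which encodes the vacuolar sterol transporter related to human NPC1, fell to -1.48 ± 0.07, and the sterol transfer protein gene LAM5 to -1.33 ± 0.12 (SD, n = 3; limma, adjusted p = 1.46e-06 and 4.79e-06). The secreted sterol-binding protein gene PRY1 was at -1.13 and the oxysterol-binding protein homologue gene OSH6 at -0.73, both of them called. Of the uptake transporter genes, AUS1 stood at -0.04 and did not pass, and PDR11 fell to -0.36 (limma, adjusted p = 0.732 and 0.0037).

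Of 15 genes for the turnover of sterol enzymes, 1 rose and 7 fell, and the 53.3% called was below the 75.1% of all probes. NSG2 lost its call with the round as a random block (limma, adjusted p = 0.272). The ubiquitin ligase gene SSM4, whose product marks squalene epoxidase for degradation, rose to 0.45 ± 0.09, and DFM1, a gene of endoplasmic reticulum degradation, fell to -0.78 ± 0.04 (SD, n = 3; limma, adjusted p = 0.000312 and 9.79e-06). The segregase gene CDC48 (-0.43) and its cofactor gene UFD1 (-0.54) fell as well. HRD1, whose product marks Hmg2 for degradation, was at 0.07 ± 0.18 over the first round and -0.30 ± 0.09 over the repeat (SD, n = 3 arrays each).

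Of 13 genes on other branches from isoprenoids, 6 rose and 5 fell (46.2% and 38.5%, against 37.3% and 37.8% of all probes). The heme A synthesis gene COX10, whose product attaches farnesyl to heme, rose to 0.91 ± 0.04 and the geranylgeranyl diphosphate synthase gene BTS1 to 0.61 ± 0.06 (SD, n = 3; limma, adjusted p = 5.31e-06 and 3.05e-05). The ubiquinone synthesis gene COQ2 rose to 0.65, and RAM2, the shared subunit of the prenyltransferases, fell to -0.52.

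The second question was how the pathway differed between the evolved non-mutator and its ancestor. There the changes were small but mostly 1-sided. Of the 31 genes 17 (54.8%) fell and 1 rose, where 11.1% of all probes were called lower and 10.2% higher, 21.2% in all. The median was -0.25, and 22 genes (71.0%) were below 0 on all 3 arrays, against 32.2% of probes with a value on all 9 arrays. Those above 0 on all 3 numbered 4 (HMG2, IDI1, ERG24 and ERG28), against 32.1%. Falls reached the mevalonate steps (5 of 9), the sterol steps (10 of 14) and ester storage (2 of 4), but none of the electron donor or regulator genes passed.

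ERG3 fell furthest, reading -0.79, -0.91 and -0.73, with a mean of -0.81 ± 0.09 (SD, n = 3), 1.76-fold (limma, adjusted p = 0.000464). MVD1 read -0.56, -0.66 and -0.59, a mean of -0.60 ± 0.05 (SD, n = 3), 1.52-fold (limma, adjusted p = 0.000794). ERG11 read -0.53, -0.60 and -0.49, a mean of -0.54 ± 0.05 (SD, n = 3), 1.45-fold (limma, adjusted p = 0.00101). For each of these genes the 3 arrays lay close together and far from 0.

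HMG1 read -0.38, -0.45 and -0.38, with a mean of -0.40 ± 0.04 (SD, n = 3; limma, adjusted p = 0.00271), which is the side it had on first-round mutator arrays. HMG2 read 0.17, 0.14 and 0.09 and did not pass (mean 0.13 ± 0.04, SD, n = 3; limma, adjusted p = 0.0796). ERG28 was the gene that rose, at 0.11, 0.30 and 0.40 (mean 0.27 ± 0.15, SD, n = 3; limma, adjusted p = 0.0382). UPC2 (-0.10) and ECM22 (0.02) did not pass, so ERG genes fell here while the change of their activators' genes was not past the threshold.

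The remaining falls were between -0.46 for ERG4 and -0.23 for ERG5. They were ERG13 (-0.36), ERG12 (-0.25) and ERG8 (-0.29) of the mevalonate steps, and ERG1 (-0.42), ERG7 (-0.29), ERG25 (-0.28), ERG27 (-0.25), ERG6 (-0.41) and ERG2 (-0.28) of the sterol steps, besides ARE1 (-0.25) and YEH1 (-0.28). Genes that did not pass included the ester storage genes ARE2 (0.01) and YEH2 (-0.02). The test shares its estimate of spread with the mutator replicates. Fitted alone the 3 non-mutator arrays gave 20 genes lower and 1 higher. Without non-mutator array 2 the count was 9, without array 3 it was 7 and without array 4 it was 8. With the 6 mutator arrays as separate replicates it was 4. The share of all probes called in these alternatives is not given here, so the counts cannot be set against a background.

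**Figure D4:**
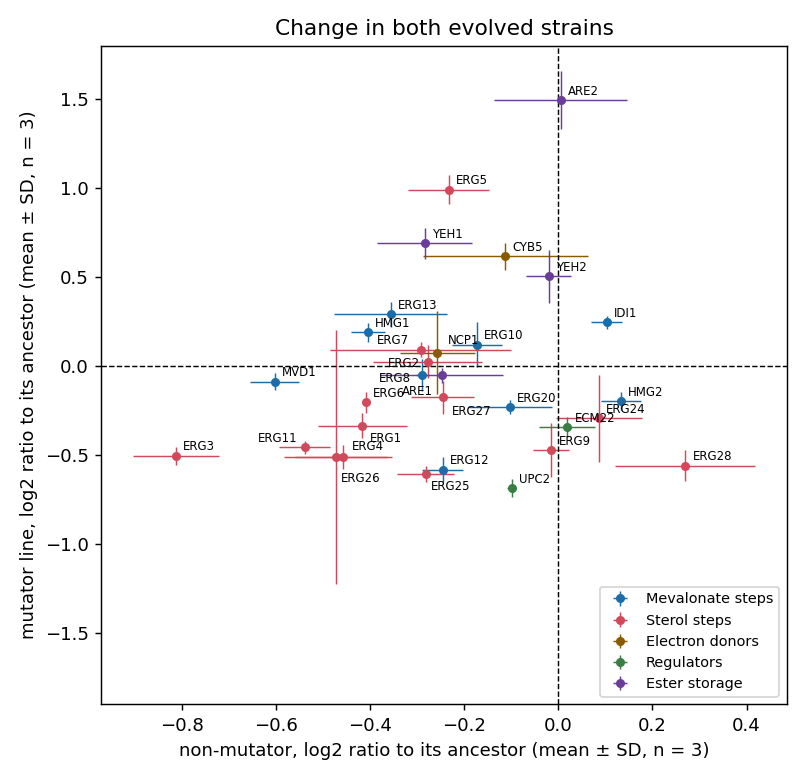
Mean log2 ratio to the ancestor in the mutator line (y axis) against that in the non-mutator (x axis) for the 31 genes, coloured by branch. Bars are SD over 3 replicates. ERG3, ERG11 and ERG4 lie below 0 on both axes, ARE2 and ERG5 stand at 1.5 and 0.99 in the mutator line, and ERG28 lies on opposite sides.

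The third question was whether the change differed between the evolved strains. The difference, mutator minus non-mutator, passed for 22 of the 31 genes, 14 higher and 8 lower, where 33.0% and 30.9% of all probes were called, 63.9% in all. The split was 18 higher and 7 lower without centring and 21 higher and 3 lower after scaling all arrays to an equal spread, and with the round as a random block 11 genes passed in all. Genes called lower in both strains numbered 8 (ERG12, ERG1, ERG11, ERG25, ERG27, ERG6, ERG3 and ERG4), or 25.8% of the set, where 5.55% of all probes were. Of these the difference did not pass for ERG11, at 0.08 with an SE of 0.06, for ERG4, at -0.05 with an SE of 0.08, for ERG1, at 0.08 with an SE of 0.08, and for ERG27, at 0.07 with an SE of 0.08. Because Cy5 marked the evolved strain on every array, a shared fall cannot be told apart from a dye effect on the same genes. ERG3 fell further in the non-mutator, with a difference of 0.31 (SE 0.07; limma, adjusted p = 0.0099). It did not pass on the first round only or with replicates paired by number across the strains. ERG25 fell further in the mutator line, with a difference of -0.32 (SE 0.06; limma, adjusted p = 0.00452) that turned to 0.26 after the equal-spread scaling.

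Opposite calls in the strains were found for 5 genes, where 9.34% of all probes had them. ERG13, HMG1, ERG5 and YEH1 were higher in the mutator line and lower in the non-mutator, and ERG28 was the reverse. The mutator call of HMG1 was lost with the round as a random block, and the non-mutator calls of ERG5 and ERG28 were lost in 10 and 9 of 20 alternatives. The non-mutator calls of HMG1, ERG13 and YEH1 held in 16, 14 and 13 of 20. On the first round alone and with equal-spread scaling the mutator call of ERG13 was lost. The difference was 1.23 for ERG5 (SE 0.08), 0.65 for ERG13 (SE 0.08) and -0.83 for ERG28 (SE 0.10), each of which passed (limma, adjusted p = 3.26e-05, 0.000728 and 0.000445). For HMG1 the difference of 0.60 (SE 0.06) did not hold on the first-round arrays alone, where it was -0.07 (limma, adjusted p = 0.54).

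The 31 genes lie on 10 chromosomes, 7 of them on chromosome XIII (ERG13, HMG1, ERG12, ERG8, ERG6, ERG2 and ERG5) and 6 on chromosome XII. The median over all tested probes of chromosome XIII was 0.04 in the first round, 0.04 in the repeat and -0.01 in the non-mutator, against -0.47 and 0.85 for HMG1 in the mutator rounds.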

How the data were processed

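Total RNA (Qiagen RNeasy Midi kit) was hybridised to 2-colour arrays. The deposited values are linear ratios; the direction, evolved strain (Cy5) over ancestor (Cy3), is inferred from the dyes in the labels and is not stated with the values. How the background was corrected, the arrays scaled and which software was used is not given in the sources used here. Dyes were never swapped, so a dye effect on a gene cannot be told apart from a change between evolved strain and ancestor. The number of arrays limits the precision.

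Ratios at the lowest value, 0.01 (tolerance 1e-04), were set to missing, and log2 ratios of the deposited ratios were centred on each array's median, which lowered mutator values by 0.10 on average. Symbols and chromosomes came from the R64 reference table, in which all 31 genes matched. Arrays of the same evolved RNA number were averaged, and a probe was fitted if each group had 2 or more replicates with a value (limma 3.58.1, lmFit and eBayes, R 4.3.3; tested on simulated data), two-sided, with Benjamini-Hochberg adjustment over all probes. The round difference was fitted on the 3 within-number differences. Figures used Python 3.11.15, pandas 2.3.3 and matplotlib 3.10.9.

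All 31 genes are named. Of each of 6 lists of related genes, up to 4 with the smallest p in the mutator are named, and AUS1, PDR11, HRD1, HAP1, DAN1 and genes losing a call with the round block were chosen after their values were seen. Members and lists were chosen with earlier results of these data known. Alternatives varied centring, scaling, use of repeat arrays, rounds, fit, filters, threshold, block and replicates; 2 were added later.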

Additional observations from a re-analysis of the deposited data

Results flagged for a closer look

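NCP1, the reductase that feeds electrons to sterol enzymes, stood out on the first-round array of number 1 at 0.63, away from the other 5 mutator arrays. The gap to the nearest array was 0.741 of the range, above Dixon's critical value of 0.625 for 6 values, which chance alone passes in about 1 of 20 groups.

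The change differed between the evolved strains for 22 genes, by the limma test of the difference (mutator minus non-mutator, log2). This is 71.0% of the 31, near the 63.9% of all probes that passed, so the count is no result about these genes, and 11 passed with the round as a random block. It was higher in the mutator line for ARE2 (1.49), ERG5 (1.23), YEH1 (0.97), CYB5 (0.73), ERG13 (0.65), HMG1 (0.60), YEH2 (0.53), MVD1 (0.52), ERG7 (0.39), ERG3 (0.31), ERG2 (0.30), ERG10 (0.29), ERG8 (0.24) and ERG6 (0.21). It was lower for ERG28 (-0.83), UPC2 (-0.59), ERG9 (-0.46), ERG24 (-0.38), ECM22 (-0.36), ERG12 (-0.34), HMG2 (-0.33) and ERG25 (-0.32).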

How the results depend on the processing

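Across all alternatives that could be run, 12 mutator calls (ERG12, ERG9, ERG11, ERG25, ERG28, ERG3, ERG5, ERG4, UPC2, ARE2, YEH1 and YEH2), 7 differences (ERG13, MVD1, ERG28, ERG5, ARE2, YEH1 and YEH2) and 1 non-mutator call (ERG3) passed every time. Apart from the mutator calls of each round alone, the share of all probes passing under an alternative is not given here. Counts under alternatives therefore show how far calls depend on the fit and cannot be set against a background. The cause of the changes below was not tested unless fewer samples made them. The deposited ratios carry no signal over background, so what signal limits cannot be given.

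After scaling to equal median absolute deviation the mutator count was 14 in place of 23. The non-mutator count of 18 was 4 with 6 mutator arrays as replicates, 4 with the round as a random block, 8 at an adjusted p under 0.01 and 7 to 19 with 1 replicate left out. The count of 22 differences was 12 with 6 arrays as replicates, 11 with the round block and 13 on the first round only. The round difference of 1 gene was 0 with floor ratios kept, 0 at an adjusted p under 0.01 and 0 to 0 with 1 replicate left out.

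With the replicate block, pairing non-mutator and mutator numbers, 1 non-mutator call and 13 differences passed, ERG9 in the non-mutator was 0.0547 and the ERG26 difference 0.22. Same-numbered deviations correlated at -0.0201 (number 2) and 0.0162 (number 3), and differently numbered ones at 0.00812 and -0.0148. These values gave no ground for the pairing, but with 3 replicates in each group they cannot exclude it. With no replicate block, an alternative added after seeing the data, 5 genes passed between rounds.

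On the first round only, mutator values turned for ERG10 (-0.28), HMG1 (-0.47), HMG2 (0.30), ERG7 (-0.13), ERG2 (-0.17), CYB5 (-0.074) and ARE1 (0.13). Differences turned for ERG10 (-0.11), HMG1 (-0.0673), HMG2 (0.16), ERG8 (-0.0727), IDI1 (-0.0375), ERG1 (-0.11), ERG27 (-0.25), the mevalonate median (-0.0673) and the sterol median (-0.11). On the repeat round only, mutator values turned for ERG8 (0.26), MVD1 (0.10), ERG26 (0.27), ERG27 (0.14), NCP1 (-0.0163) and the mevalonate median (0.26), and differences for ERG26 (0.75) and ERG4 (0.0045).

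Without centring, mutator values turned for ERG8 (0.0506), MVD1 (0.0155), ARE1 (0.0496) and the mevalonate median (0.0506), and differences for ERG26 (0.0568) and ERG4 (0.0411). With equal spread, differences turned for ERG12 (0.19), IDI1 (-0.0747), ERG20 (0.0922), ERG25 (0.26), ERG26 (0.77) and ERG4 (0.72), and ARE2 in the non-mutator was -0.0008. Without the repeat array of number 2, also added later, mutator values turned for ERG10 (-0.0452), HMG1 (-0.0606), ERG7 (-0.0246), ERG2 (-0.0912) and ARE1 (0.0191), and differences for ERG1 (-0.0117), ERG27 (-0.0794) and the sterol median (-0.0395).

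With 1 replicate left out, values near 0 changed sign. Mutator values ran from -0.0822 to 0.0007 for ERG8 and the mevalonate median, -0.0214 to 0.07 for ERG2 and -0.0494 to 0.18 for NCP1. Non-mutator values ran from -0.0557 to 0.0824 for ARE2, -0.0003 to 0.0528 for ECM22, -0.0363 to 0.0017 for ERG9 and -0.0349 to 0.0071 for YEH2. The ERG26 difference ran from -0.45 to 0.18. Round differences ran from -0.0042 to 0.19 for ERG11, -0.0089 to 0.21 for ERG20, -0.0017 to 0.0372 for ERG24, -0.0566 to 0.27 for ERG4 and -0.31 to 0.0303 for NCP1.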
